A study of Mus musculus with 9 samples.

Results

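Hearts of mice that had lost 1 copy of each *miR-1* gene were compared with wild-type hearts. The 3 arrays of double-heterozygous hearts and the 3 arrays of wild-type hearts were chosen by the genotype in their labels, and they make up 6 of the 9 arrays of the series. The other 3 arrays are of *miR-1-1* null hearts and serve below as a second comparison. All hearts were taken at postnatal day 2 from mice of a mixed 129 x C57BL/6 strain. The double-heterozygous mice were *miR-1-1* +/- and *miR-1-2* +/-, so that 1 intact copy of each gene remained. The null mice lacked both copies of *miR-1-1* and kept *miR-1-2*. In the targeted *miR-1-1* allele the precursor had been replaced by a floxed neomycin resistance gene with its own pGK promoter, so that this allele as targeted carries a foreign transcription unit as well as the deletion, and the sources used here do not say whether it was later removed. The *miR-1-2* allele came from an earlier line of targeted mice. Expression was given as a log2 level for each probe set of an Affymetrix mouse Gene ST array after RMA normalization, and 22180 genes were followed. The labels do not say whether each array holds 1 animal or a pool, nor whether the animals were littermates, so the p-values refer to the spread among these arrays, which may be partly technical, and the small number of arrays limits the precision.

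*miR-1* is the most abundant microRNA of heart and skeletal muscle. A pair of genes encodes it, and each is transcribed together with a gene for *miR-133a*, a second muscle microRNA. A microRNA guides a silencing complex to messenger RNAs that pair with its seed, bases 2 to 8 counted from its 5′ end, and these messages are then destabilised or translated less. In heart muscle *miR-1* is known for roles in differentiation, in electrical conduction and in the growth of the ventricle.

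The array probes of the *miR-1* and *miR-133a* loci read precursor transcripts rather than mature microRNAs. Of the mature products of *Mir1a-1*, the gene that was targeted at *miR-1-1*, the 5p strand was held in the RefSeq table for GRCm38.p6, at chr2:180389057-180389079 on the plus strand. It is printed because it marks the hairpin that the deletion removed. Mature strands of 3 other microRNA genes whose precursor signals were higher in double-heterozygous hearts are printed beside it, at chr5:48223966-48223986 on the plus strand, chr7:61685279-61685300 on the minus strand and chr13:62760807-62760825 on the plus strand. Capitals mark the seed of each strand. The seed printed for miR-1a-1-5p is that of the 5p arm and not that of *miR-1* itself, which is the 3p arm of the same hairpin.
miR-1a-1-5p: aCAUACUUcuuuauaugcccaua
miR-218-5p: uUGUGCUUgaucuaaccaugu
miR-344d-3p: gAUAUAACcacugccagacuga
miR-713: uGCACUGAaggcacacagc

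The microRNA precursor signals of the *miR-1-2* locus were lower in double-heterozygous hearts, and the signals of the *miR-1-1* locus were not uniformly so. *Mir133a-1*, the neighbour of *miR-1-2*, had log2 levels of 4.43, 4.00 and 4.22 in double-heterozygous hearts and of 6.37, 6.09 and 5.42 in wild-type hearts. The genotypes did not overlap. Its log2 fold change was -1.74 (standard error 0.25), a level 0.299 times that of wild-type, with an adjusted p of 0.0929 over all genes in limma. With 3 arrays against 3 the exact permutation test, two-sided throughout, cannot go below p = 0.1, and *Mir133a-1* reached that value. A probe set shared by *Mir1a-2* and *Mir1b*, a pair of overlapping genes at this locus, read 8.56, 8.37 and 8.58 in double-heterozygous hearts and 9.54, 9.25 and 9.38 in wild-type hearts. A second, dimmer probe set of the same pair read 1.48, 2.34 and 2.06 in double-heterozygous hearts and 3.63, 3.52 and 3.30 in wild-type hearts. Every double-heterozygous array lay below every wild-type array for both, by -0.88 and -1.52 between the means. *Mib1*, a protein-coding gene at the *miR-1-2* locus and a ubiquitin ligase of the Notch pathway, read 5.64, 5.57 and 5.84 in double-heterozygous hearts and 6.08, 5.74 and 5.74 in wild-type hearts. Its arrays overlapped, with a log2 fold change of -0.17 (exact permutation p = 0.4).

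At the *miR-1-1* locus the host transcript was higher in double-heterozygous hearts. *Mir1a-1hg* had log2 levels of 6.79, 6.90 and 7.18 in double-heterozygous hearts and 6.07, 5.82 and 5.62 in wild-type hearts. All 3 double-heterozygous arrays stood above the wild-type ones, a log2 fold change of 1.12 (standard error 0.19, limma adjusted p = 0.130), and the exact permutation p was 0.1. *Mir133a-2*, the neighbour of *miR-1-1*, read 6.32, 5.33 and 5.87 in double-heterozygous hearts and 5.63, 6.38 and 5.45 in wild-type hearts. The 2 genotypes interleaved, with a log2 fold change of 0.02 (exact permutation p = 1.0). *Mir1a-1* itself was dim, at 1.52, 1.46 and 0.92 in double-heterozygous hearts and 1.29, 1.85 and 2.21 in wild-type hearts. These arrays overlapped (log2 fold change -0.48, exact permutation p = 0.3), near the background level of 1.74 that was set by the upper quartile of olfactory and vomeronasal receptor genes in wild-type hearts. *Mir133a-1*, *Mir133a-2*, *Mir1a-1hg* and *Mib1* are not the deleted precursors, so their values do not by themselves check the deletions.

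**Figure D1:**
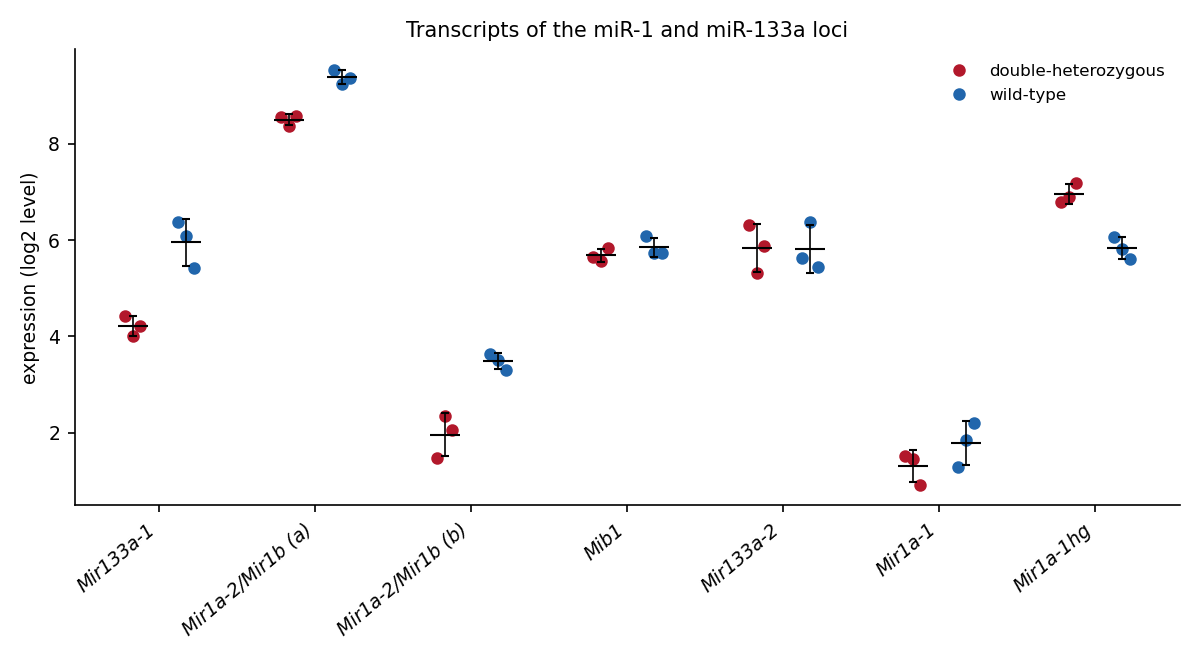
Log2 expression level (vertical axis) of the transcripts of the miR-1 and miR-133a loci in 3 double-heterozygous (red) and 3 wild-type (blue) hearts, with dots for arrays, horizontal lines for means and bars for the SD. (a) and (b) are the 2 probe sets shared by Mir1a-2 and Mir1b. Mir133a-1 and both Mir1a-2/Mir1b probe sets were lower and Mir1a-1hg was higher in every double-heterozygous array, whereas Mib1, Mir133a-2 and Mir1a-1 overlapped.

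The hearts of both genotypes read as heart. The cardiomyocyte genes *Myh6*, *Tnnt2*, *Actc1*, *Tnni3*, *Myl2* and *Ryr2* lay between 8.10 and 11.57 in double-heterozygous hearts and between 8.06 and 11.41 in wild-type hearts, and none of them had an unadjusted limma p under 0.05. The liver genes *Alb* and *Afp*, the fat gene *Adipoq* and the T cell gene *Cd3e* stayed at or below 1.94 on every one of these 6 arrays. One wild-type array, replicate 1, stood apart in single genes of neighbouring tissues. *Scgb1a1*, the secretoglobin of airway club cells, was at 6.51 there, against 1.54 to 1.91 in double-heterozygous hearts and 1.94 to 2.39 in the other wild-type hearts. *Ucp1*, the thermogenic protein of brown fat, was at 4.95 on the same array, against 2.46 to 3.55 in double-heterozygous hearts. *Cidea* did not set this array apart, at 5.76 there and 5.81 on wild-type replicate 2. *Xist* marked double-heterozygous replicate 7 (8.31) and wild-type replicate 1 (7.74) as female, so that each genotype held 1 female, and the Y-linked *Eif2s3y* read 5.90 to 6.91 on the other 4 arrays. Arrays correlated with each other at 0.982 to 0.9884.

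More genes rose than fell at the study's thresholds, which ask for an unadjusted limma p under 0.0025 and a fold of more than 1.5 upward or less than 0.5 downward. In double-heterozygous hearts 110 genes rose (0.496% of those tested) and 10 fell (0.0451%). The arrays of the 2 genotypes did not overlap for any of these 120 genes. With 3 arrays against 3 the thresholds favour genes without overlap, and the rises and falls named below were also picked for it. Separation stated for such genes therefore follows from their selection and is no further test. The thresholds are not symmetrical, and 46 genes were lower at the same p with a fold of 1.5. After Benjamini-Hochberg adjustment 4 genes (0.018%) had p under 0.05, which were *Mylk4* below and *Olfr1391*, *Olfr1373* and *Gm14517* above wild-type. A wider call, an unadjusted p under 0.05 with no overlap between the arrays of the 2 genotypes, took 697 genes higher (3.14%) and 972 lower (4.38%). It is used below to count the members of gene lists. The lists and this call were chosen with earlier results of these data known, so the shares of list members are descriptions and no test. With 1 array left out, 36 of the 120 genes met the study's thresholds whichever array was omitted, 33 of them higher and 3 lower. Without wild-type replicate 1, 73 genes were higher and 22 lower at those thresholds, and without wild-type replicate 3, 72 were higher and 8 lower.

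Well expressed genes were shifted slightly downward as a whole. Over all 22180 genes the median log2 fold change was -0.024, with 9887 genes above 0 and 12288 below. By mean level over all arrays the median was 0.028 under a log2 level of 2 and 0.010 between 2 and 3, but -0.058 between 3 and 5, -0.099 between 5 and 7, -0.068 between 7 and 9 and -0.032 above 9. Of the 3646 genes between 5 and 7, 25.7% were above 0. Medians of gene lists below are therefore small where they lie near -0.1. After cyclic loess between arrays, which removes a dependence on level, 10989 genes were above 0 and 11191 below, and the wider call took 725 genes higher and 678 lower. With a filter at the median level the wider call took 245 genes higher and 836 lower, so that most lower calls lay in expressed genes. The share of 4.38% lower over all genes is therefore a low mark for lists of expressed genes.

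**Figure D2:**
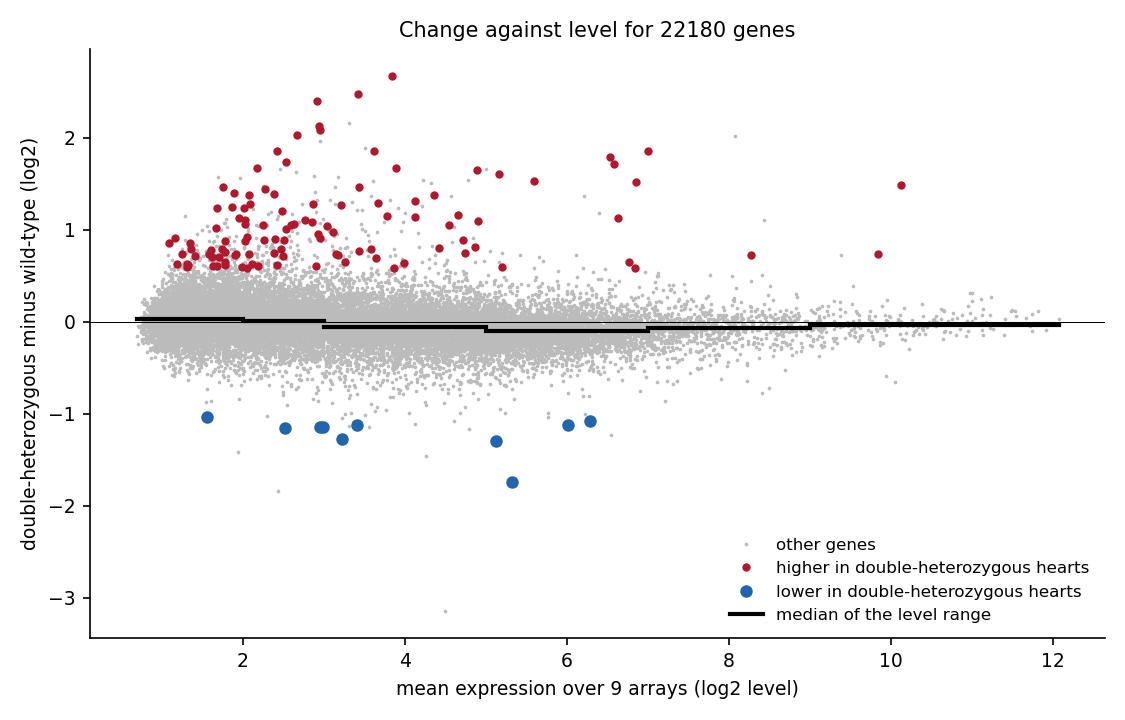
Log2 fold change, double-heterozygous minus wild-type (vertical axis), against the mean log2 level over 9 arrays (horizontal axis) for 22180 genes, with the 110 genes that rose in red and the 10 that fell in blue at the study's thresholds, and black lines for the median in each range of level. The red genes lie mostly at low levels, and the median dips to -0.099 between levels 5 and 7.

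The 10 genes that fell were *Mir133a-1*, *Mid1*, *Xirp2*, the predicted model *Gm10731*, *Trim72*, *Mylk4*, *Scd4*, *Irgm2*, *Lgals3bp* and *Ms4a4c*. Several of them are genes of striated muscle. Of the 10, 6 averaged under 3 in double-heterozygous hearts, among them *Mylk4*, *Xirp2* and *Trim72*, near the median level of 2.885 over all genes. *Mylk4*, a kinase of the myosin light chain kinase family, read 2.48, 2.70 and 2.34 in double-heterozygous hearts and 3.76, 3.58 and 3.62 in wild-type hearts. The arrays of each genotype lay close together, and the gap between the genotypes was wider than the range within either. Its log2 fold change of -1.15 (standard error 0.11) gave the smallest p of all genes, with an adjusted p of 0.0241 in limma, and it met the study's thresholds without any 1 of the 9 arrays. In *miR-1-1* null hearts *Mylk4* read 2.70 on each of the 3 arrays, and double-heterozygous replicate 8 held that same value. The fit pools the spread of all 9 arrays, so the null SD of 0.00 narrows the standard error. With only the 6 arrays compared, 1 gene had a limma adjusted p under 0.05, and by the methods' t-test 0 genes had one. The direct difference of double-heterozygous from null hearts was -0.19 for *Mylk4* (limma adjusted p = 0.733).

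*Xirp2* encodes an actin-binding protein of the intercalated disc with Xin repeats. It read 2.54, 3.03 and 2.85 in double-heterozygous hearts and 4.04, 4.26 and 3.95 in wild-type hearts. The lowest wild-type array exceeded the highest double-heterozygous array by more than the range within either genotype, and the log2 fold change was -1.28 (standard error 0.26, limma adjusted p = 0.169). *Trim72*, also known as MG53, is a muscle protein that patches tears of the cell membrane. It read 2.81, 2.29 and 2.77 in double-heterozygous hearts and 3.80, 4.01 and 3.50 in wild-type hearts, again with no overlap, a log2 fold change of -1.15 (standard error 0.20, limma adjusted p = 0.130). *Mid1*, a microtubule-bound ubiquitin ligase of the same tripartite motif family, read 4.56, 4.82 and 4.50 in double-heterozygous hearts and 6.25, 5.39 and 6.13 in wild-type hearts. Wild-type replicate 2 was the lowest of its group but still above every double-heterozygous array (log2 fold change -1.29, standard error 0.22, limma adjusted p = 0.130). *Scd4*, the stearoyl-CoA desaturase of heart, read 5.44, 5.29 and 5.49 in double-heterozygous hearts and 6.56, 7.00 and 6.04 in wild-type hearts. The double-heterozygous arrays lay close together below the more widely spread wild-type arrays, and the log2 fold change was -1.13 (standard error 0.23, limma adjusted p = 0.169). Without wild-type replicate 1 or 2, or any 1 of the double-heterozygous arrays, *Scd4* missed the study's thresholds. *Ms4a4c*, a membrane protein gene of leukocytes, fell at the edge of background, at 1.03, 0.75 and 1.18 in double-heterozygous hearts and 1.66, 2.55 and 1.86 in wild-type hearts (log2 fold change -1.04, limma adjusted p = 0.228).

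The falls differed in how far they rested on single arrays. *Mylk4*, *Mid1* and *Mir133a-1* met the study's thresholds whichever array was left out, and *Trim72* and *Gm10731* missed them only without double-heterozygous replicate 8. *Xirp2* missed them without wild-type replicate 1 or 2 or without double-heterozygous replicate 7 or 9, and its log2 fold change lay between -1.39 and -1.14 over these omissions. *Irgm2* and *Lgals3bp*, which belong to the interferon-inducible genes described below, missed them without wild-type replicate 2 or 3 and without double-heterozygous replicate 7 or 8, at log2 fold changes between -1.39 and -0.90 and between -1.24 and -0.97. *Lgals3bp* also missed them without double-heterozygous replicate 9, and *Ms4a4c* met them only without wild-type replicate 1 or null replicate 4.

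The genes next in order of p, lower by more than a fold of 1.5, were of mixed function. *Twf2*, which encodes the actin monomer-binding twinfilin, read 5.05, 5.54 and 5.61 in double-heterozygous hearts and 6.20, 6.49 and 6.48 in wild-type hearts. That is a fold of 0.501, which narrowly missed the threshold of 0.5. *Hjv*, the bone morphogenetic protein co-receptor of iron metabolism that is made in muscle and liver, read 5.78, 6.02 and 5.69 in double-heterozygous hearts and 6.50, 6.69 and 6.74 in wild-type hearts (log2 fold change -0.81). *Tgfb1*, a growth factor of fibrosis, read 4.97, 5.13 and 5.04 in double-heterozygous hearts and 5.57, 5.81 and 5.73 in wild-type hearts (log2 fold change -0.66). All 3 separated the genotypes without overlap, which their selection required, each with a limma adjusted p of 0.130 or 0.140. *Hhatl*, *Ets2*, *Adgrd1*, *Nrap*, *Slain2*, *Tnxb*, *Shroom4*, *Mreg* and *Stox2*, the others of this group, had log2 fold changes between -0.90 and -0.61. For *Stox2* the direct difference from null hearts was also negative, at -0.82 (standard error 0.10, limma adjusted p = 0.117), which was the smallest adjusted p of that contrast.

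Genes of muscle protein turnover and membrane repair stood lower as a group. Of 24 members measured, 22 were below 0 with a median of -0.39, beside -0.024 over all genes, and 12 passed the wider call downward (50%, against 4.38% of all genes) and none upward. This list holds muscle ubiquitin ligases and their kelch adaptors with caveolar proteins, and its members were gathered with earlier results of these data in view. *Klhl40*, a kelch protein that stabilises thin filament proteins, read 2.94, 3.41 and 3.15 in double-heterozygous hearts and 4.21, 4.12 and 3.87 in wild-type hearts (log2 fold change -0.90, standard error 0.22, limma adjusted p = 0.234). Its relatives *Klhl31* and *Klhl41* had log2 fold changes of -0.56 and -0.54. *Fbxo32*, the F-box protein atrogin-1 that marks muscle proteins for degradation, read 4.94, 5.14 and 4.76 in double-heterozygous hearts and 5.92, 5.42 and 5.36 in wild-type hearts. Wild-type replicate 1 was its highest array, and the log2 fold change was -0.62. *Cavin4*, the muscle coat protein of caveolae, read 7.04, 7.04 and 6.83 in double-heterozygous hearts and 7.52, 7.49 and 7.38 in wild-type hearts (limma adjusted p = 0.172), a small but regular gap. *Cavin1*, *Fbxo40*, *Trim54* and *Asb14* also passed the wider call, at log2 fold changes between -0.61 and -0.40. The mean level over the list was 4.88, 4.91 and 4.84 in double-heterozygous hearts and 5.28, 5.25 and 5.24 in wild-type hearts, and the median with wild-type replicate 1 left out was -0.305.

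In *miR-1-1* null hearts the same list had a median of -0.096 against wild-type, and the median of the direct difference of double-heterozygous from null hearts was -0.184. Both comparisons with wild-type share the wild-type arrays. Single members differed in this respect. *Fbxo32* and *Klhl31* had log2 fold changes of -0.62 and -0.55 in the direct difference from null hearts (limma adjusted p = 0.503 and 0.545). *Trim72* and *Asb14* had 0.04 and 0.03 there.

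**Figure D3:**
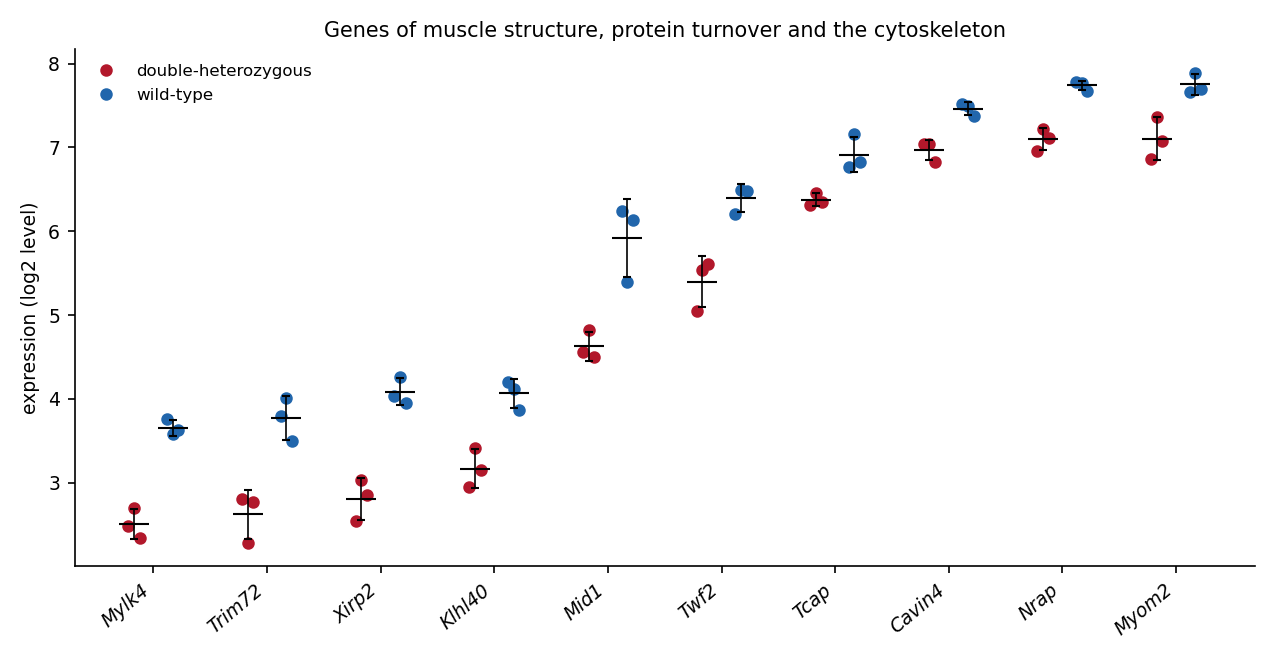
Log2 expression level (vertical axis) of 10 genes of muscle structure, protein turnover and the cytoskeleton in 3 double-heterozygous (red) and 3 wild-type (blue) hearts, with dots for arrays, horizontal lines for means and bars for the SD. The genotypes do not overlap for any gene shown, since all of them passed the wider call, which requires this. The difference between the means is largest for Mid1, Xirp2, Trim72 and Mylk4.

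Genes of the sarcomere itself differed by small amounts. Z-disc and intercalated disc genes had a median of -0.18 with 24 of 30 members below 0. Of these genes 8 passed the wider call downward (26.7%, against 4.38% of all genes), among them *Xirp2*, *Tcap*, *Ankrd23* and *Myoz2*. *Tcap*, the titin cap protein of the Z-disc, read 6.31, 6.46 and 6.35 in double-heterozygous hearts and 6.77, 7.15 and 6.83 in wild-type hearts (log2 fold change -0.54, limma adjusted p = 0.193). Thick filament and M-band genes had a median of -0.03 over 15 members, or 0.01 after cyclic loess, and thin filament genes one of -0.08 over 18. *Nrap*, an anchoring protein of assembling myofibrils, was the thin filament member with the smallest p, at 6.96, 7.22 and 7.11 in double-heterozygous hearts and 7.78, 7.77 and 7.67 in wild-type hearts (log2 fold change -0.64, limma adjusted p = 0.133). *Myom2*, which crosslinks thick filaments in the M-band, read 6.86, 7.37 and 7.08 in double-heterozygous hearts and 7.67, 7.89 and 7.70 in wild-type hearts. *Myh7*, the slow myosin heavy chain of the fetal ventricle, read 6.71, 6.68 and 7.58 in double-heterozygous hearts and 7.83, 8.18 and 7.55 in wild-type hearts. Double-heterozygous replicate 9 reached the wild-type range, and the log2 fold change of -0.86 did not pass the wider call.

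Among genes of smooth muscle, many of which the developing heart also uses for a time, a few rose and the list was centred near 0. Its 29 members split into 14 above and 15 below 0, with a median of -0.005, and after cyclic loess 19 were above and 10 below 0, with a median of 0.08. By the wider call 5 were higher (17.2%, against 3.14% of all genes) and 4 lower (13.8%, against 4.38%). *Cnn1*, the calponin that binds actin in smooth muscle, read 7.46, 6.93 and 7.80 in double-heterozygous hearts and 6.55, 5.57 and 5.52 in wild-type hearts. Wild-type replicate 1 came closest to the double-heterozygous range, and the log2 fold change was 1.52 (standard error 0.31), a level 2.87 times that of wild-type, with a limma adjusted p of 0.169. The call at the study's thresholds was lost without double-heterozygous replicate 7 or 9 or without wild-type replicate 2 or 3, although the log2 fold change stayed between 1.32 and 1.86. *Myl9*, the regulatory myosin light chain of smooth muscle, read 10.16, 9.81 and 10.23 in double-heterozygous hearts and 9.27, 9.27 and 9.44 in wild-type hearts. These ranges were well apart, with a log2 fold change of 0.74 (standard error 0.14, limma adjusted p = 0.152). *Myl9* missed the study's thresholds without double-heterozygous replicate 7 or 9, and its log2 fold change lay between 0.66 and 0.87 over all omissions. *Acta2*, smooth muscle actin, read 9.44, 9.49 and 9.88 in double-heterozygous hearts and 9.24, 9.02 and 8.36 in wild-type hearts. Its log2 fold change of 0.73 passed the wider call and not the study's thresholds (limma adjusted p = 0.332).

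The remaining smooth muscle genes went both ways. *Tpm2* and *Csrp2*, a tropomyosin and a LIM protein, passed the wider call upward at log2 fold changes of 0.49 and 0.36. *Tagln*, the calponin relative SM22, read 5.10, 4.91 and 4.75 in double-heterozygous hearts and 5.26, 4.54 and 4.34 in wild-type hearts, where replicate 1 held the highest value of all 6. *Ppp1r14a*, an inhibitor of myosin phosphatase, read 2.90, 3.11 and 2.48 in double-heterozygous hearts and 3.86, 3.48 and 4.13 in wild-type hearts. It was the lowest of the group at a log2 fold change of -0.99 (standard error 0.24, limma adjusted p = 0.235). *Mylk*, the smooth muscle myosin light chain kinase gene, which also encodes telokin, read 3.38, 3.36 and 3.31 in double-heterozygous hearts and 3.55, 3.65 and 3.65 in wild-type hearts (log2 fold change -0.27, limma adjusted p = 0.327). *Vcl*, which links actin to adhesion sites, had a log2 fold change of -0.32.

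The regulators of these genes are serum response factor and its coactivator myocardin, which act on CArG boxes. *Srf* read 5.95, 6.08 and 6.12 in double-heterozygous hearts and 6.61, 6.73 and 6.19 in wild-type hearts. Wild-type replicate 3 lay just above the double-heterozygous arrays, and the log2 fold change was -0.46 (limma adjusted p = 0.351). *Myocd* read 7.86, 7.82 and 8.13 in double-heterozygous hearts and 8.00, 7.82 and 7.76 in wild-type hearts, with a log2 fold change of 0.08. *Mef2d*, a partner factor, had a log2 fold change of -0.41 (limma adjusted p = 0.332). Immediate early genes, many of which serum response factor also controls, had a median of -0.17 with 21 of 25 below 0, but 1 member passed the wider call (*Nr4a2*, at 0.43).

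A CArG box in its strict form was searched on both strands of the RefSeq promoter windows of GRCm38.p6, which hold a gene's start and the stretch just before it. It was found for 5 of 25 smooth muscle genes with a window (20%) and for 1.67% of the 16990 measured genes with one, and for 1.63% of all windows. Among other muscle lists, 3 of 14 thick filament genes and 3 of 14 thin filament genes held the motif (21.4% each), and 2 of 20 Z-disc and intercalated disc genes (10%). A like share was also seen outside muscle, in 2 of 10 genes of lung and airway epithelium (20%), and all these lists are short. The motif was held by 2 of 68 genes that rose (2.94%) and 0 of 8 that fell. The boxes of 4 genes whose values are given above or in the next sentence are printed because they show that both a gene that rose and genes that stood lower hold the motif. *Cnn2*, a second calponin, had a log2 fold change of -0.02. Each line gives 30 bases with the box in capitals, at chr2:156775293-156775322 on the plus strand for *Myl9*, chr17:46556225-46556254 on the minus strand for *Srf*, chr14:20929161-20929190 on the plus strand for *Vcl* and chr10:79988534-79988563 on the plus strand for *Cnn2*.
Myl9: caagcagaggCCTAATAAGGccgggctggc
Srf: ctggggctcgCCATATAAGGagcggcctcg
Vcl: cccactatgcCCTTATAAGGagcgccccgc
Cnn2: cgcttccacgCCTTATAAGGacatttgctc
The box began 161 bases before the start of *Myl9*, 82 before that of *Srf*, 227 before that of *Vcl* and 56 before that of *Cnn2*. No other motif was searched. A match is a description of the sequence and does not show that a factor binds there.

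**Figure D4:**
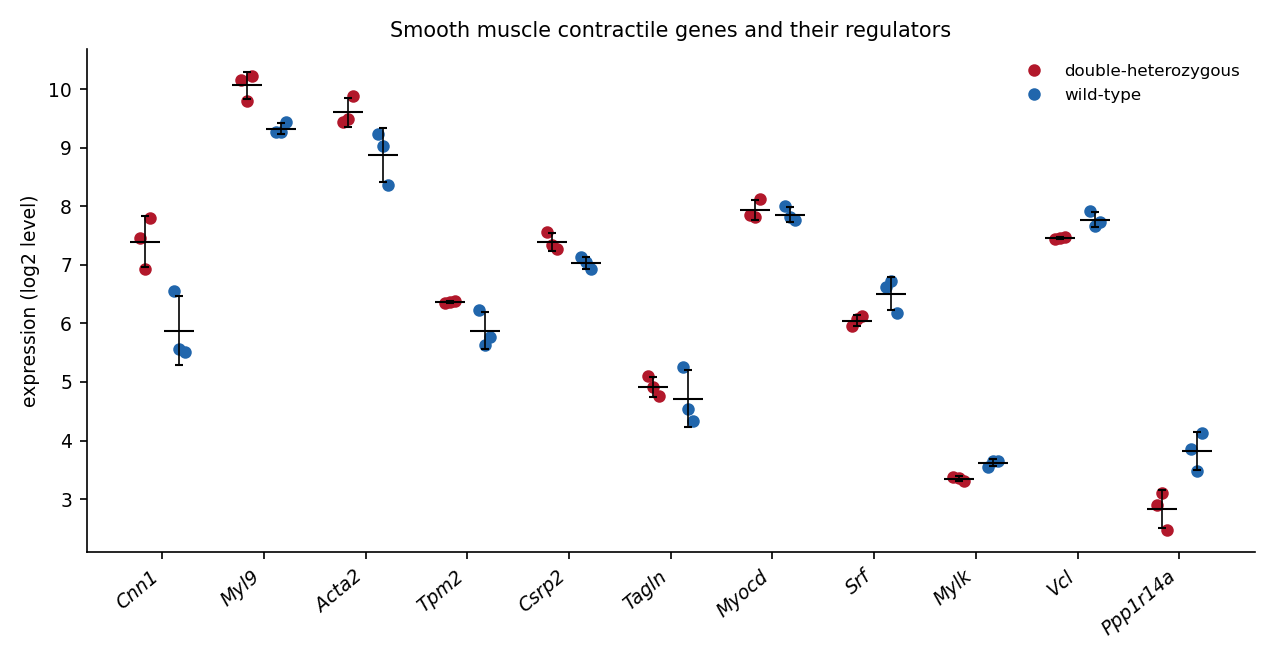
Log2 expression level (vertical axis) of smooth muscle contractile genes and their regulators Myocd and Srf in 3 double-heterozygous (red) and 3 wild-type (blue) hearts, with dots for arrays, horizontal lines for means and bars for the SD. Cnn1, Myl9, Acta2, Tpm2 and Csrp2 lie higher in every double-heterozygous array and Srf, Mylk, Vcl and Ppp1r14a lower, while Tagln and Myocd overlap.

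Genes of fat metabolism were lower by small amounts. Of 32 genes of fatty acid uptake and oxidation 29 were below 0, with a median of -0.20, and 5 passed the wider call downward (15.6%, against 4.38% of all genes). After cyclic loess 26 were below 0 and the median was -0.13. *Hadhb*, a subunit of the trifunctional enzyme of beta-oxidation, read 3.90, 3.23 and 3.23 in double-heterozygous hearts and 4.14, 4.43 and 4.25 in wild-type hearts (log2 fold change -0.82, limma adjusted p = 0.310). Its probe set read far below the mean level of this list, 7.222 to 7.484 on these arrays, and may report the gene poorly. *Slc27a1*, a fatty acid transporter, had -0.58, and *Lpl*, *Cpt2* and *Hadh* lay between -0.33 and -0.25. Among 29 targets of the lipid-sensing PPAR receptors and genes of fasting, 8 passed the wider call downward (27.6%, against 4.38% of all genes) and none upward. *Pdk4*, the kinase that shuts off pyruvate oxidation, read 7.90, 8.44 and 7.98 in double-heterozygous hearts and 8.92, 8.76 and 8.79 in wild-type hearts, a separation of genotypes with a log2 fold change of -0.72 (standard error 0.15, limma adjusted p = 0.171). *Ppargc1a*, the coactivator PGC-1alpha that drives mitochondrial growth, read 6.96, 7.00 and 7.00 in double-heterozygous hearts and 8.25, 7.43 and 7.31 in wild-type hearts. Its wild-type spread came from replicate 1 (log2 fold change -0.68, limma adjusted p = 0.339). *Pnpla2*, the lipase of fat droplets, and *Lpin1*, a phosphatidate phosphatase that also coactivates PGC-1alpha, had -0.44 and -0.69.

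Mitochondrial respiration genes lay close to the median of all genes. Complex I genes had a median of -0.09 over 33 members and complexes II to V one of -0.04 over 40, and the median of complexes II to V was 0.01 after cyclic loess. *Ndufb11*, an accessory subunit of complex I, was an exception, with means of 4.32 in double-heterozygous and 5.24 in wild-type hearts and no overlap (log2 fold change -0.92, limma adjusted p = 0.206). Its probe set read far below the mean level of the complex I list, 8.355 to 8.502 on these arrays, and may report the gene poorly. The cytochrome oxidase isoforms *Cox8a* and *Cox6a1*, those of tissues other than striated muscle, passed the wider call upward at 0.39 and 0.32. *Cs* and *Pdha1*, citrate synthase and a subunit of pyruvate dehydrogenase, passed it downward at -0.26 and -0.43. Cell cycle genes had a median of 0.06 with 26 of 36 above 0 and none called upward. The mean level over that list was 5.436, 5.515 and 5.541 in double-heterozygous hearts and 5.614, 5.164 and 5.647 in wild-type hearts, and without wild-type replicate 2, the lowest, the median was -0.120. *Cdkn1a*, the cell cycle inhibitor p21, read 5.11, 5.77 and 6.18 in double-heterozygous hearts and 7.36, 6.39 and 6.32 in wild-type hearts, with replicate 1 the highest.

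Wild-type replicate 1 was also highest in genes that respond to glucocorticoids, the stress steroids. The mean level over that list of 20 genes was 4.48, 4.51 and 4.97 in double-heterozygous hearts and 5.40, 4.71 and 4.69 in wild-type hearts. The list median was -0.15 with all arrays and -0.08 without wild-type replicate 1. Its members *Klf9* and *Ddit4* had log2 fold changes of -0.68 and -0.99, with limma adjusted p values of 0.538 and 0.565. In double-heterozygous against null hearts the median of the list was -0.348, with null replicate 4 reading highest at a mean of 5.58. Without wild-type replicate 1 the median of the fatty acid list was -0.170 and that of the PPAR list -0.148, and without wild-type replicate 3 the PPAR list had a median of -0.307. The part of glucocorticoid response in the fat metabolism values was not tested.

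Ion channel and calcium handling genes had list medians slightly below 0. Potassium channel genes had a median of -0.20 over 26 members with 20 below 0, and 4 passed the wider call downward (15.4%, against 4.38% of all genes). *Kcnj12*, an inward rectifier that holds the resting potential, read 4.85, 4.60 and 4.56 in double-heterozygous hearts and 5.00, 5.33 and 5.11 in wild-type hearts (log2 fold change -0.48, limma adjusted p = 0.234). *Kcnj3*, a subunit of the atrial channel opened by acetylcholine, had -0.43, and *Kcnq1*, of the slow delayed rectifier, had -0.32. Calcium handling genes had a median of -0.08 over 27, and by the wider call 3 were lower (11.1%, against 4.38% of all genes) and 1 higher (3.7%, against 3.14%). Neither sodium, pacemaker and connexin genes nor circadian clock genes had any member past the wider call. *Adra1b*, an adrenergic receptor, had the smallest p among autonomic, endocrine and hormone receptors, at 3.70, 3.95 and 3.76 in double-heterozygous hearts and 4.09, 4.38 and 4.38 in wild-type hearts (log2 fold change -0.48, limma adjusted p = 0.221).

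Interferon-inducible genes were lower in double-heterozygous hearts as a group. Of 36 measured, 34 were below 0, the median was -0.46, and 11 passed the wider call downward (30.6%, against 4.38% of all genes) and none upward. This list too was chosen with earlier results of these data known, so these shares describe it and do not test it. The mean level over the list was 3.37, 3.43 and 3.53 in double-heterozygous hearts and 3.70, 3.88 and 4.24 in wild-type hearts, with wild-type replicate 3 highest. *Irgm2*, an interferon-induced GTPase of cell-autonomous immunity, read 2.73, 3.01 and 3.17 in double-heterozygous hearts and 3.57, 4.16 and 4.55 in wild-type hearts (log2 fold change -1.12, standard error 0.23, limma adjusted p = 0.169). Its relatives *Igtp* and *Iigp1* had -1.13 and -1.46. *Lgals3bp*, a secreted galectin ligand induced by interferon, read 5.84, 5.71 and 5.92 in double-heterozygous hearts and 6.58, 7.12 and 7.01 in wild-type hearts (log2 fold change -1.08, limma adjusted p = 0.179). *Bst2* and *Ifitm3*, which block virus release and entry, had -1.17 and -0.77, and *Xaf1*, an apoptosis factor, had -0.99. In null hearts the same list averaged 3.63, 3.26 and 3.44, and the direct difference of double-heterozygous from null hearts had a median of -0.005. The 3 wild-type arrays thus lay above the other 6, and both comparisons with wild-type share them. Without wild-type replicate 3 the median of the list was -0.256, and without wild-type replicate 1 it was -0.602.

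Antigen processing genes also lay lower, with 12 of 17 below 0 and a median of -0.23. *Psmb9*, a subunit of the immunoproteasome, read 4.06, 4.13 and 3.91 in double-heterozygous hearts and 4.45, 5.05 and 5.32 in wild-type hearts. *B2m*, the light chain of class I molecules, read 9.60, 9.92 and 9.79 in double-heterozygous hearts and 10.04, 10.74 and 10.29 in wild-type hearts. Their log2 fold changes were -0.91 and -0.59, with limma adjusted p values of 0.297 and 0.365. Of the chemokine genes, *Ccl2*, which recruits monocytes, had -1.08 (limma adjusted p = 0.268) and *Cxcl10*, an interferon target, had -0.53 at levels between 1.61 and 2.59.

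Markers of cells other than cardiomyocytes were counted over whole lists. In whole hearts fewer cells of a type and less RNA per cell cannot be told apart. Macrophage and leukocyte genes had 23 of 30 members below 0 and a median of -0.26. By the wider call 7 were lower (23.3%, against 4.38% of all genes) and 2 higher (6.67%, against 3.14%). The mean level of the list was 3.47 to 3.53 in double-heterozygous hearts and 3.58 to 3.88 in wild-type hearts. *Mrc1*, the macrophage mannose receptor, read 3.96, 3.72 and 4.06 in double-heterozygous hearts and 4.31, 4.50 and 4.43 in wild-type hearts (limma adjusted p = 0.248). *Lyz1*, a lysozyme, rose by contrast, at 2.17, 2.34 and 2.45 in double-heterozygous hearts and 1.82, 1.22 and 1.70 in wild-type hearts (log2 fold change 0.74, limma adjusted p = 0.169), and missed the study's thresholds without wild-type replicate 2 or double-heterozygous replicate 8 or 9 (0.56 to 0.86). The part of macrophages in the interferon values was not tested.

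Fibroblast and matrix genes had a median of -0.13 over 43 members, or -0.06 after cyclic loess. By the wider call 4 were lower (9.3%, against 4.38% of all genes) and 1 higher (2.33%, against 3.14%). *Tcf21*, a transcription factor of cardiac fibroblasts, read 5.88, 5.71 and 5.50 in double-heterozygous hearts and 6.21, 6.18 and 6.35 in wild-type hearts (log2 fold change -0.55, limma adjusted p = 0.224). *Loxl1*, which crosslinks elastin, had -0.53, and *Pdgfra* and *Dcn* had -0.40 and -0.31. *Thbs4*, a thrombospondin of the matrix, rose, at 5.50, 4.96 and 4.97 in double-heterozygous hearts and 4.53, 4.15 and 4.28 in wild-type hearts (log2 fold change 0.82, limma adjusted p = 0.232), but kept its call without 1 of the 9 arrays only when null replicate 6 was the one omitted. Endothelial genes had a median of -0.14 over 33 members, or -0.07 after cyclic loess. Pericyte and vascular smooth muscle genes had one of -0.22 over 16, or -0.15 after cyclic loess. The share of 4.38% of all genes is a low mark for expressed genes such as these. Beside it, 2 endothelial (6.06%) and 3 pericyte genes (18.8%) passed the wider call downward. T, B and mast cell genes, erythroid genes and epicardial and valve genes had none past it in either direction. Of 19 genes of glia and neurons 13 were above 0, with a median of 0.036. By the wider call 2 of them were higher (10.5%, against 3.14% of all genes) and 1 lower (5.26%, against 4.38%). *Sox10*, a factor of glia, passed it upward at 0.45 and *S100b*, a glial calcium-binding protein, downward at -0.70.

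**Figure D5:**
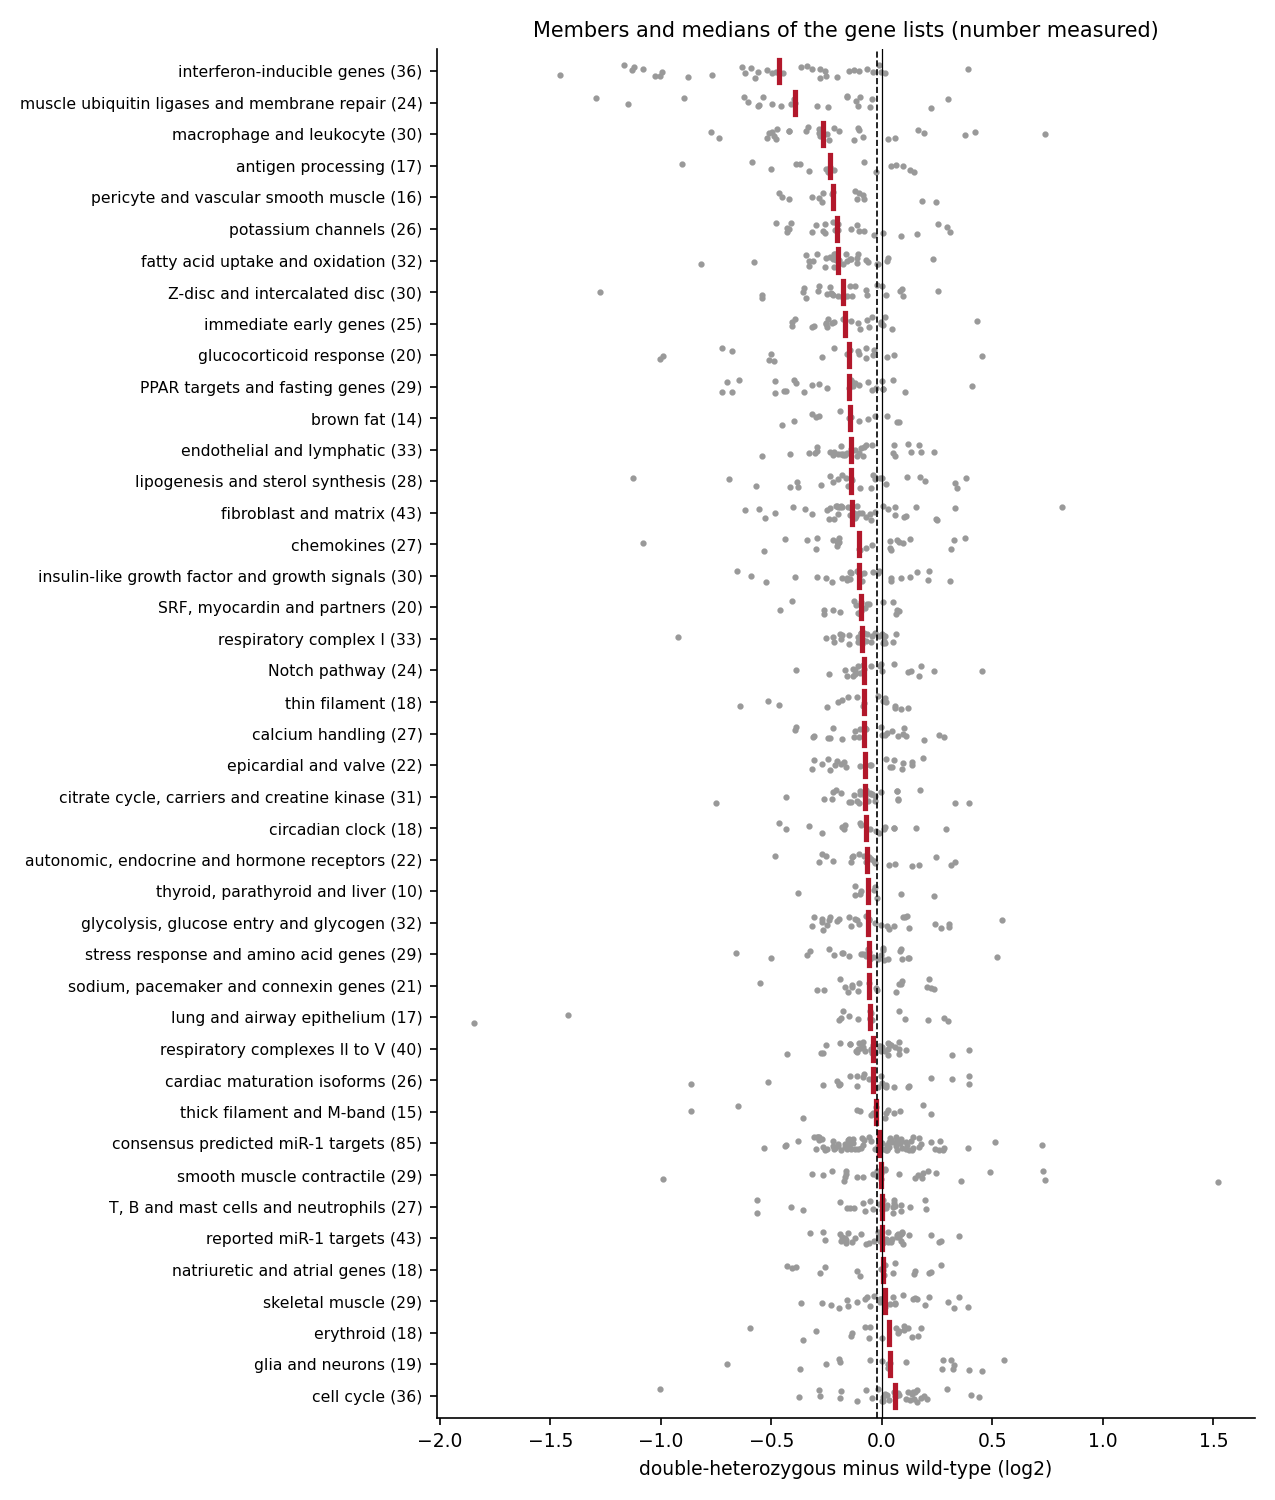
Log2 fold change, double-heterozygous minus wild-type (horizontal axis), of the members of the lists of heart, metabolic, signalling, cell type and target genes (grey dots, number measured in parentheses), with the list median as a red bar and the median of all genes, -0.024, as a dashed line. Interferon-inducible genes and muscle ubiquitin ligases and membrane repair genes lie farthest to the left, at -0.46 and -0.39, and of the lists drawn, cell cycle genes lie farthest to the right, at 0.06, or at -0.120 without wild-type replicate 2.

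Targets of *miR-1* were centred near 0. Of 43 genes reported as targets in other work, 22 were above 0 and 21 below, with a median of 0.00. By the wider call 1 of them was higher, *Sri* at 0.26 (2.33%, against 3.14% of all genes), and 1 lower, *Mylk* at -0.27 (2.33%, against 4.38%). After cyclic loess 26 of them were above 0, with a median of 0.05. The 85 measured genes of the study's own consensus list of predicted targets, which it drew from genes selected on their expression in hearts without *miR-1* relative to wild-type hearts, had 41 above and 44 below 0 and a median of -0.01, or 44 above and 41 below and a median of 0.03 after cyclic loess. By the wider call 3 were higher (3.53%) and 5 lower (5.88%), shares near those of all genes. *Ddx5*, an RNA helicase of splicing and microRNA processing, was the 1 member that met the study's thresholds. It read 8.59, 8.61 and 9.01 in double-heterozygous hearts and 7.85, 8.16 and 8.04 in wild-type hearts, with a log2 fold change of 0.72 (standard error 0.14, limma adjusted p = 0.153). In null hearts *Ddx5* read 8.07, 8.16 and 7.92, and the direct difference was 0.69 (limma adjusted p = 0.361). Without wild-type replicate 1 *Ddx5* missed the study's thresholds, and its log2 fold change against wild-type lay between 0.59 and 0.80 over all omissions. *Anp32b*, a histone-binding protein, had 0.39 and *Ets1*, a transcription factor of endothelium, had -0.43.

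Many of the 110 rises were in gene families with little expression in heart. Olfactory and vomeronasal receptor genes, the odorant and pheromone receptors of the nose, gave 37 of them, 2.66% of the 1390 measured against 0.496% of all genes. Of all 1390 receptors 66.6% were above 0, with a median of 0.091, and their mean level was 1.68 to 1.70 in double-heterozygous hearts and 1.43 to 1.59 in wild-type hearts, so that the shift lay near background. The 37 averaged between 1.55 and 4.97 in double-heterozygous hearts and between 0.72 and 3.72 in wild-type hearts. *Olfr1391* read 2.33, 2.79 and 2.57 in double-heterozygous hearts and 0.90, 1.25 and 1.14 in wild-type hearts, and every wild-type array was below background (log2 fold change 1.47, limma adjusted p = 0.0241). *Olfr1373* read 4.52, 4.36 and 4.38 in double-heterozygous hearts and 3.11, 3.53 and 3.15 in wild-type hearts (log2 fold change 1.15, limma adjusted p = 0.0241). Predicted models and clone names gave 18 more rises, 0.612% of 2943, a share near the 0.496% of all genes. Small RNA genes gave 12 (2.12% of 565) and immunoglobulin and T cell receptor segments 3 (10.7% of 28). Of all 110, 79 averaged under 3 in wild-type hearts and 42 were at or below background there.

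The other 40 rises were among 17254 named genes, 0.232% of them. The 5 largest were *Btbd35f2*, *Oog1*, *Klra9*, *Sprr2e* and the pseudogene *Pisd-ps3*, at log2 fold changes of 1.86, 1.85, 1.74, 1.68 and 1.61. *Btbd35f2*, of a testis gene family on the X chromosome, read 8.83, 8.08 and 7.73 in double-heterozygous hearts and 6.03, 6.69 and 6.36 in wild-type hearts (log2 fold change 1.86, standard error 0.39, limma adjusted p = 0.172). *Oog1*, an oocyte gene, read 3.92, 4.90 and 4.91 in double-heterozygous hearts and 2.74, 2.45 and 2.99 in wild-type hearts (log2 fold change 1.85, limma adjusted p = 0.120). *Sprr2e*, a protein of the cornified skin barrier, read 4.78, 4.84 and 4.84 in double-heterozygous hearts and 2.87, 3.21 and 3.36 in wild-type hearts (log2 fold change 1.68, limma adjusted p = 0.0592). All 3 separated the genotypes without overlap, which their selection required. *Btbd35f2*, *Oog1*, *Sprr2e*, *Speer4cos* and *Speer8-ps1* belong to multigene families whose near-identical copies may share probes. *Klra9*, a natural killer cell receptor gene, *Csnka2ip*, *Csn2*, the milk protein beta-casein, *Prm1*, a sperm protamine, *Hsf5*, *Ces1d* and *Clrn2* rose by log2 fold changes between 0.75 and 1.74 at low levels. *Oog1*, *Sprr2e*, *Csnka2ip*, *Csn2*, *Prm1* and *Ces1d* met the study's thresholds whichever array was left out. *Btbd35f2* missed them without any 1 of 4 arrays, with log2 fold changes between 1.55 and 2.10, *Klra9* without wild-type replicate 3 or double-heterozygous replicate 9 (1.34 to 2.14), *Hsf5* without any 1 of 3 arrays (0.74 to 1.05) and *Clrn2* without any 1 of 6 (0.67 to 0.89).

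Small RNA genes included well expressed ones. *Rpph1*, the RNA subunit of ribonuclease P that trims transfer RNA precursors, read 10.94, 10.58 and 10.15 in double-heterozygous hearts and 9.24, 9.38 and 8.61 in wild-type hearts. Every double-heterozygous array stood higher, with a log2 fold change of 1.48 (standard error 0.28, limma adjusted p = 0.140), and the gene met the study's thresholds whichever array was left out. In null hearts it read 10.27, 11.01 and 10.92. Among 478 microRNA precursor genes, of which 252 were above background, 11 rose (2.3%, against 0.496% of all genes) and 1 fell at the study's thresholds, and the median was -0.015. *Mir467e* read 8.12, 7.38 and 7.22 in double-heterozygous hearts and 5.52, 6.11 and 5.95 in wild-type hearts (log2 fold change 1.72, limma adjusted p = 0.157). It missed the study's thresholds without wild-type replicate 1 or double-heterozygous replicate 7, at log2 fold changes between 1.44 and 1.89 over all omissions. Those whose mature strands are printed above were dimmer. *Mir218-1*, which lies in an intron of *Slit2*, read 2.45, 2.65 and 2.90 in double-heterozygous hearts and 1.33, 1.60 and 1.35 in wild-type hearts (log2 fold change 1.24, limma adjusted p = 0.113), and *Mir344d-2* and *Mir713* had 0.79 and 0.54. Small nucleolar and Cajal body RNAs, which guide modification of ribosomal and spliceosomal RNA, had 53 of 78 below 0 with a median of -0.15. By the wider call 3 of them were higher (3.85%, against 3.14% of all genes) and 2 lower (2.56%, against 4.38%). *Snord61* had -0.80, and *Snord8*, *Snora33* and *Snord104* had 0.64, 0.58 and 0.54. *Pcdhb6*, a clustered protocadherin of cell adhesion, was the 1 protocadherin to rise, at 3.55, 3.35 and 3.43 in double-heterozygous hearts and 2.78, 2.77 and 2.59 in wild-type hearts (log2 fold change 0.73, limma adjusted p = 0.0898).

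Double-heterozygous hearts were also set directly against *miR-1-1* null hearts. This contrast uses the same double-heterozygous arrays as the one with wild-type, so genes picked for their values on these arrays are favoured in both. At the study's thresholds 65 genes were higher and 2 lower in double-heterozygous than in null hearts, 67 in all (0.302%). At an adjusted p under 0.05 limma called 0 genes, with a smallest adjusted p of 0.117 and 1638 genes at an unadjusted p under 0.05. Of the 110 genes that rose against wild-type, 38 also met the thresholds above null hearts, an overlap that is partly built in by the shared arrays. Of the 10 that fell 1 met them below null hearts, *Mir133a-1*, at -1.57 (limma adjusted p = 0.180). *Mir133a-2* was higher than in null hearts by 2.05 (limma adjusted p = 0.322), where it read 4.51, 3.79 and 3.07. *Cnn1*, *Myl9*, *Acta2*, *Rpph1* and *Mir1a-1hg* had direct differences between -0.18 and 0.11, and *Xirp2*, *Trim72* and *Mylk4* between -0.19 and 0.04, with standard errors of 0.11 to 0.31, and none of these 8 differences had an unadjusted limma p under 0.05. The 95% interval of the direct difference was -0.58 to 0.81 for *Cnn1* and -0.44 to 0.05 for *Mylk4*. Without null replicate 4, 44 genes met the thresholds in this contrast. No null array carried *Xist*, so sex is not balanced here.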

How the data were processed

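The authors extracted total RNA from hearts with TRIzol, amplified it and hybridized it to Affymetrix mouse Gene ST arrays. The deposited values are log2 expression levels per probe set after RMA, which corrects background, equalises the distributions of the arrays and summarises probes. Per the submitters' processing notes this was done with Affymetrix Power Tools 1.12.0. No source used here gives the genome build of the array's annotation. The platform table pairs 23521 of the 41345 probe sets with a single gene symbol, 1820 with several and 16004 with none. Only single-symbol probe sets were used, and where a gene had several, its brightest on average across the 9 arrays stood for it. No further normalization or filter was applied. The largest share of equal values (to within 1e-06) in any pair of arrays was 6.92%, and all arrays were kept as separate samples. Sequences came from RefSeq, GRCm38.p6.

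Tests used limma 3.58.1 in R 4.3.3, with a mean per genotype fitted to all 9 arrays, lmFit and eBayes, and Benjamini-Hochberg adjustment over all genes. Tables and figures used Python and matplotlib. The test was checked on simulated data. Gene lists, 51 with 3460 entries of which 101 were not measured, were described by counts and medians without a set test. Lists, thresholds of the wider call and alternatives were chosen with earlier results of these data known. Named genes were those of the loci, the largest rises and falls at the study's thresholds, filled up by p, the genes the paper's text names, up to 5 per list by p, and the leading genes of the contrast with null hearts. *Olfr1391*, *Olfr1373*, *Gm14517*, *Gm10731*, *Fbxo32*, *Fbxo40*, *Klhl31*, *Klhl41*, *Trim54*, *Asb14*, *Tpm2*, *Iigp1*, *Xaf1*, *Dcn* and the list of splicing factors were picked with their values in view. The alternatives tried were other arrays in the fit, an intensity trend, the methods' t-test, filters, normalizations, probe set rules, array weights, a sex covariate, a symmetrical fold and leaving out each array.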

Additional observations from a re-analysis of the deposited data

Results flagged for a closer look

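For the genes below, the direct comparison of double-heterozygous with *miR-1-1* null hearts met the study's thresholds, which use an unadjusted p. Values are log2 differences of double-heterozygous from null hearts, and the limma adjusted p values ran from 0.117 for *Gm14517* to 0.448 for *Snord104*, so that none passed an adjusted p of 0.05.

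At the loci, *Mir133a-1* differed by -1.57 and *Mir133a-2* by 2.05. Against wild-type, *Mir133a-1* was at -1.74 in double-heterozygous and at -0.17 in null hearts, while *Mir133a-2* was at 0.02 in double-heterozygous and at -2.03 in null hearts. The helicase gene *Ddx5* differed by 0.69, the microRNA gene *Mir344d-2* by 0.84 and the small nucleolar RNA *Snord104* by 0.60.

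The other genes are little expressed in heart or belong to multigene families. *Btbd35f2* differed by 1.78, *Speer4cos* by 1.76, *Pisd-ps3* by 1.61 and *Speer8-ps1* by 1.47. *Csnka2ip* differed by 1.21, *Gm14517* by 1.17, *Sprr2e* by 1.11 and *Clrn2* by 1.04. *Olfr1391* differed by 0.94, *Csn2* by 0.89, *Prm1* by 0.84, *Hsf5* by 0.76 and *Olfr1373* by 0.76. With 3 arrays of each genotype, single arrays were not tested as outliers.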

How the results depend on the processing

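At the study's thresholds 110 genes rose and 10 fell. The methods' t-test gave 26 and 3, with 0 at an adjusted p under 0.05 and 10 in the contrast with null hearts. A filter at the median level left 47 rises, 2 genes at an adjusted p under 0.05, 245 higher by the wider call and 28 in the contrast with null hearts. With only the 6 arrays compared, 1 gene had an adjusted p under 0.05. A fold of 1.5 in both directions gave 46 falls. With 1 array left out, 72 to 121 genes rose, 8 to 22 fell, 0 to 13 had an adjusted p under 0.05, 704 to 908 were higher and 966 to 1192 lower by the wider call, and 44 to 98 met the thresholds against null hearts. Cyclic loess gave 118 rises, 9 falls and, by the wider call, 725 higher and 678 lower genes, against 697 and 972 without it. All 120 called genes kept their direction in each alternative that retained them. *Mir133a-2*, at 0.02 with all arrays, lay between -0.22 and 0.30 with 1 array left out, below 0 without wild-type replicate 1 (-0.07) or 3 (-0.16) or double-heterozygous replicate 7. *Myocd* lay between -0.02, without double-heterozygous replicate 9, and 0.14. Of 2561 values of single genes under alternatives, 2409 kept direction and side of the threshold, and of 969 list medians 826 moved by less than the replicate spread. The causes were not tested. Genotypes share no replicate numbers, so no paired analysis was possible. With 3 arrays per genotype and levels near background for many rises, small changes could not be resolved.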

Other observations

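Splicing factors and their kinases were put together as a list after the values of *Ddx5*, *Srsf6* and *Ccnl2* were seen, so its values are a description. Of 35 members measured, 31 were above 0, with a median log2 difference of 0.14 between double-heterozygous and wild-type hearts, and 9 were higher by the wider call (25.7%, against 3.14% of all genes) and none lower. *Srsf6*, a serine and arginine rich splicing factor, read 7.27, 7.14 and 7.11 in double-heterozygous hearts and 6.56, 6.58 and 6.62 in wild-type hearts (log2 fold change 0.59, standard error 0.10, limma adjusted p = 0.130). *Ccnl2*, a cyclin that binds splicing kinases, read 7.16, 7.11 and 7.23 in double-heterozygous hearts and 6.34, 6.67 and 6.53 in wild-type hearts (log2 fold change 0.65, standard error 0.13, limma adjusted p = 0.153). Both separated the genotypes without overlap, as did every gene called at the study's thresholds. *Tra2a* and *Ddx17* had log2 fold changes of 0.58 and 0.41. In null hearts the median of the list was 0.036 against wild-type, and the 2 comparisons share the wild-type arrays.

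Genes called at the study's thresholds lay on every chromosome but Y. Chromosome 2 had the most rises (14, with 1 fall) and the highest share called, 0.805% of 1864 genes against 0.541% of all genes. Chromosomes 6 and 16 followed closely with 0.749% and 0.711%. The rises on chromosome 2 included *Mir1a-1hg* of the targeted locus, *Myl9* and *Mir467e*. How many were receptors or small RNAs was not counted, and a part of the locus in this share was not tested.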
